A study of Homo with 4 samples.

Results

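The YTH family of m6A readers comprised 5 genes, YTHDF1, YTHDF2, YTHDF3, YTHDC1 and YTHDC2, of the 20263 genes in the deposited count table. They were found by name through their GRCh38 positions, and together they held 30 of the 95139 transcripts listed. RNA-seq was performed on H1299 cells, a human non-small cell lung cancer line, transduced with lentivirus carrying either a control hairpin (shCtrl, 2 libraries, labelled as wild type) or a hairpin against IGF2BP3 (shIGF2BP3, 2 libraries, labelled as IGF2BP3 knockdown). All 4 libraries were made with an mRNA-seq kit from cells grown in the same medium with serum, and no other treatment, allele or time point was given. The labels call the libraries of each group biological replicates, and the sources do not say which hairpin each shIGF2BP3 library carried.

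N6-methyladenosine (m6A) is a methyl mark placed on adenosines of mRNA by a methyltransferase complex, and it acts largely through proteins that bind it. YTH proteins hold the methylated base in an aromatic pocket of their YTH domain. The YTHDF proteins work in the cytoplasm on the translation and decay of methylated mRNA, YTHDC1 works in the nucleus on splicing and export, and YTHDC2 is an RNA helicase best known from meiosis in the germ line. IGF2BP3 belongs to a separate family of m6A readers, which bind through KH domains and are known for stabilising their target mRNAs. The comparison therefore asked how the RNAs of one reader family stood in cells in which a reader of another family was targeted.

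The targeted gene was lower in the knockdown libraries. IGF2BP3 stood at 41.15 and 32.94 CPM (counts scaled to library size by the TMM method) in shCtrl and at 26.42 and 24.76 CPM in shIGF2BP3. Both knockdown libraries lay below both controls, with a log2 fold change of -0.53 (SE 0.17, 95% interval -0.97 to -0.10), an unadjusted p of 0.0244 and an adjusted p of 0.472 (edgeR quasi-likelihood test, Benjamini-Hochberg over 13379 genes). The fold of 0.691 is a reduction smaller than 1.5-fold, and with 1 library left out the log2 value ranged from -0.36 (without shCtrl 1) to -0.68 (without shCtrl 2), with an unadjusted edgeR p of 0.1, 0.0619 and 0.0993 without shCtrl 1, shIGF2BP3 1 and shIGF2BP3 2. Its paralogs IGF2BP1 and IGF2BP2 gave log2 fold changes of -0.13 and 0.20, with adjusted p of 0.741 and 0.584 by edgeR. Total counts were between 29709686 and 34817513 per library, and the mitochondrial share of the counts was 9.11% and 13.43% for shCtrl and 11.42% and 17.02% for shIGF2BP3. Of the defining markers, KRT8 and VIM were abundant (330.35 to 446.51 and 1827.67 to 2612.22 FPKM), CDH1 and NKX2-1 were at or near 0 (at most 0.01 and 0.06 FPKM), and PTPRC and CD3E were listed at 0 in all libraries.

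Compared per unit of transcript length, YTHDF1 and YTHDF2 were the most abundant readers and YTHDC2 was at the low end. FPKM (fragments scaled by transcript length and library size), summed over the transcripts of a gene, was 16.93 and 13.97 for YTHDF1 in shCtrl and 17.72 and 17.57 in shIGF2BP3. YTHDF2 stood at 14.28 and 11.77 FPKM in shCtrl and 16.95 and 16.66 in shIGF2BP3, below YTHDF1 in each library. YTHDC1 stood at 12.86 and 10.05 FPKM in shCtrl and 13.29 and 13.57 in shIGF2BP3. YTHDF3, the remaining cytoplasmic reader, was at 2.68 and 10.07 FPKM in shCtrl and 9.73 and 12.96 in shIGF2BP3, so it was the lowest of the family in shCtrl 1 and above YTHDC2 elsewhere. YTHDC2 was at 3.79 and 2.96 FPKM in shCtrl and 4.78 and 4.58 in shIGF2BP3.

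In shCtrl the libraries of all neighbours in this order overlapped (15.45 ± 2.09 for YTHDF1, 13.02 ± 1.78 for YTHDF2, 11.45 ± 1.99 for YTHDC1, 6.37 ± 5.22 for YTHDF3 and 3.37 ± 0.59 for YTHDC2, mean FPKM ± SD, n = 2). In shIGF2BP3 no neighbours overlapped, though YTHDC1 and YTHDF3 differed by less than the SD of YTHDF3 (17.65 ± 0.10, 16.80 ± 0.21, 13.43 ± 0.20, 11.34 ± 2.29 and 4.68 ± 0.15 in the same order). By their shCtrl means the members ranked between the 47.1th percentile (YTHDC2) and the 75.7th percentile (YTHDF1) of the 15806 genes detected.

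**Figure D1:**
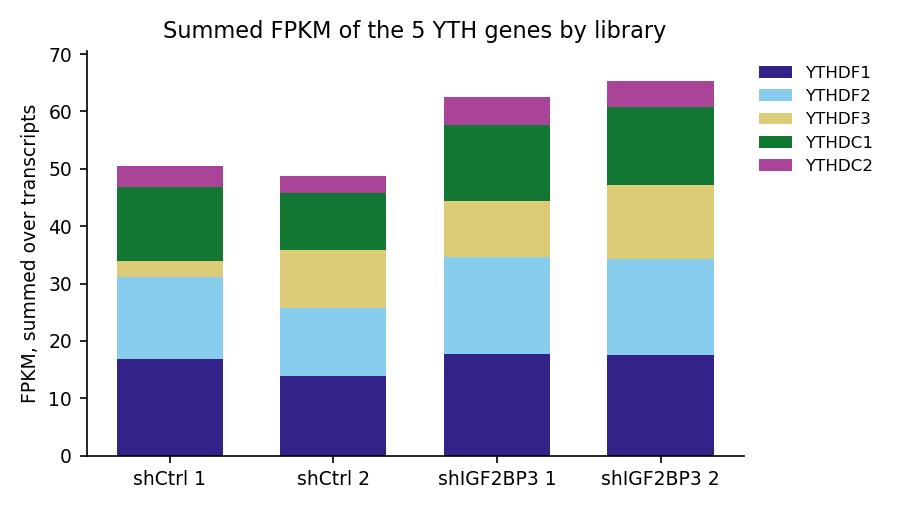
Summed FPKM of the 5 YTH genes (vertical axis, from 0) in each library, with 1 colour per gene. The stacks reach 50.54 and 48.81 FPKM in shCtrl and 62.46 and 65.34 FPKM in shIGF2BP3, and the YTHDF3 segment is thin in shCtrl 1 alone.

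The family sum was higher in both knockdown libraries, a difference that was not tested. The summed FPKM of the 5 genes was 50.54 and 48.81 in shCtrl and 62.46 and 65.34 in shIGF2BP3, without overlap. The make-up of this sum was similar in both groups, as the plot of stacked FPKM shows. YTHDF1 took 31.1 ± 3.44% of it in shCtrl and 27.6 ± 1.04% in shIGF2BP3, YTHDF2 took 26.2 ± 2.93% and 26.3 ± 1.16%, and YTHDC1 took 23.0 ± 3.44% and 21.0 ± 0.36% (SD, n = 2). The YTHDF3 share was 13.0 ± 10.83% and 17.7 ± 3.02%, and the YTHDC2 share 6.8 ± 1.01% and 7.3 ± 0.46% (SD, n = 2). Each of these differences in share was within, or about as large as, the spread between libraries of a group.

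Gene by gene, all 5 log2 fold changes were above 0 and 4 of the 5 members had both knockdown libraries above both controls, but no member passed the thresholds for a call. A gene was called where the fold change reached 1.5 and the unadjusted p was 0.05 or less. Of the 13379 genes tested, 5.32% were called in this way, in either direction, and 0 of the 5 members were. At an adjusted p under 0.05, edgeR called 0% of all genes and 0 members. At the same adjusted threshold DESeq2 called 1.27% of genes and limma 0.0731%, and neither called a member. An unadjusted p of at most 0.05 by edgeR was found for 10.5% of all genes and for 2 of the 5 members, YTHDF2 and YTHDC2. Complete separation with higher values in shIGF2BP3 was found for 23.3% of all genes tested, and for 4 of the 5 members. The median log2 fold change was 0.47 over the members and 0.00 over all genes tested. A bulk library cannot tell more RNA in every cell from a larger share of cells that carry it.

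**Figure D2:**
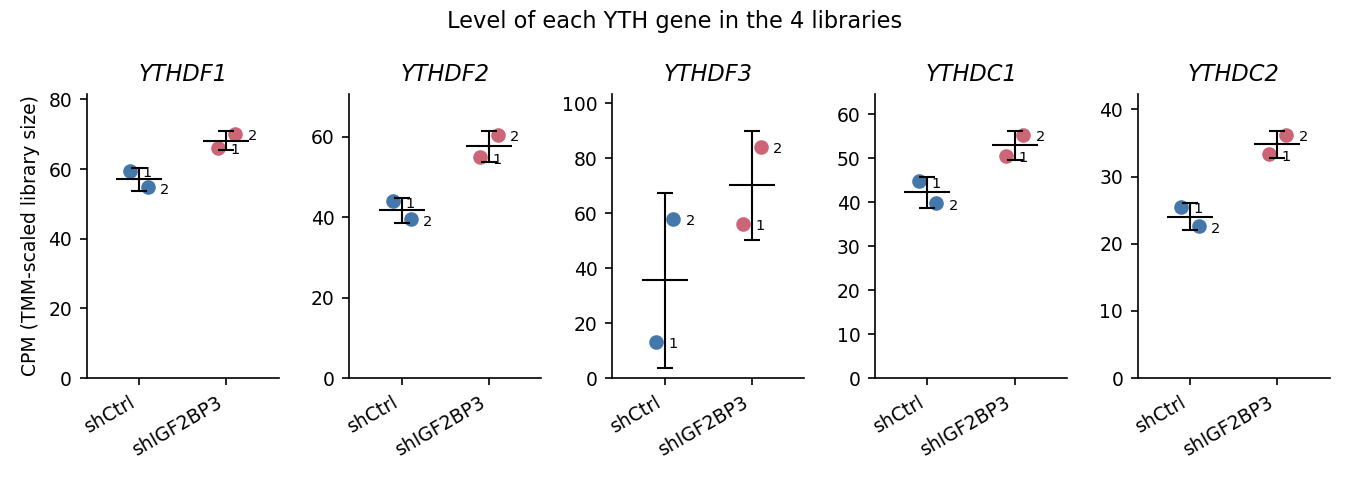
Level of each YTH gene in CPM (vertical axes, from 0, with a scale of their own) in the libraries numbered 1 and 2 of shCtrl (blue) and shIGF2BP3 (red). The horizontal bar is the mean and the whisker is 1 SD (n = 2), and YTHDF3 is the member whose groups overlap, with 13.11 and 57.94 CPM in shCtrl.

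YTHDF1 (ENSG00000149658, chr20:63195429-63216234, minus strand) is the reader linked to translation of methylated mRNA. It was measured at 59.47 and 54.75 CPM in shCtrl and at 66.21 and 70.23 CPM in shIGF2BP3. The knockdown libraries were the higher ones, by a small step. The log2 fold change was 0.26 (SE 0.13, 95% interval -0.07 to 0.58), with an unadjusted p of 0.103 and an adjusted p of 0.517 by edgeR, and ranged from 0.17 to 0.32 over 13 alternative settings.

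YTHDF2 (ENSG00000198492, chr1:28736621-28769775, plus strand), which recruits the CCR4-NOT deadenylase to methylated mRNA, showed a larger difference. Its level was 43.97 and 39.46 CPM in shCtrl and 54.88 and 60.42 CPM in shIGF2BP3, and the groups did not overlap. The fold change was 1.38 (log2 0.47, SE 0.14, 95% interval 0.11 to 0.82), with an unadjusted p of 0.0193 and an adjusted p of 0.472 by edgeR. The interval excluded 0, yet the fold was under 1.5 and the adjusted p was between 0.217 and 0.994 over the 13 alternatives.

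YTHDF3 (ENSG00000185728, chr8:63168553-63212786, plus strand), which is known to act together with the other YTHDF proteins, had the largest fold change of the family and the largest error. It was at 13.11 and 57.94 CPM in shCtrl and at 55.98 and 84.21 CPM in shIGF2BP3. The groups overlapped, since shCtrl 2 lay above shIGF2BP3 1, and shCtrl 1 stood apart from the other 3 libraries. The log2 fold change was 0.98 (SE 0.66, 95% interval -0.68 to 2.64), with an unadjusted p of 0.194 and an adjusted p of 0.587 by edgeR. The value depended on the control library used. Without shCtrl 1 it was 0.28 (adjusted p 0.722), and without shCtrl 2 it was 2.42 (unadjusted p 0.0021, adjusted p 0.326, edgeR). The 4.29-fold step between the shCtrl libraries was exceeded by 46 of 8995 genes with a mean of at least 10 CPM (0.511%), and the 1.5-fold step between the shIGF2BP3 libraries by 704 of them (7.83%).

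YTHDC1 (ENSG00000083896, chr4:68310387-68350089, minus strand), the nuclear reader that works with SR splicing factors and the export receptor NXF1, was at 44.74 and 39.73 CPM in shCtrl and at 50.56 and 55.30 CPM in shIGF2BP3. The groups did not overlap. Its log2 fold change was 0.33 (SE 0.14, 95% interval -0.03 to 0.69), with an unadjusted p of 0.0685 and an adjusted p of 0.483 by edgeR.

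YTHDC2 (ENSG00000047188, chr5:113513683-113595284, plus strand), the helicase that works with MEIOC and the exonuclease XRN1, was at 25.45 and 22.58 CPM in shCtrl and at 33.32 and 36.24 CPM in shIGF2BP3. It had the smallest p of the family. The fold change was 1.45 (log2 0.53, SE 0.16, 95% interval 0.14 to 0.92), just under 1.5, with an unadjusted p of 0.0162 and an adjusted p of 0.472 by edgeR. It ranked 421st by p among the genes tested, and YTHDF2 ranked 493rd.

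**Figure D3:**
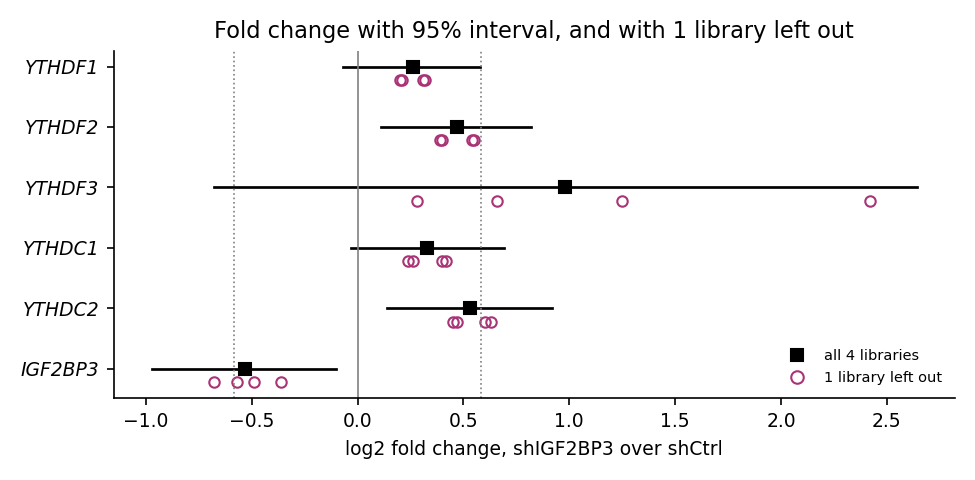
log2 fold change of shIGF2BP3 over shCtrl for the 5 YTH genes and IGF2BP3, as squares with 95% intervals, and as open circles when 1 library was left out in turn; the solid line marks 0 and the dotted lines a 1.5-fold change. The circles of YTHDF3 run from 0.28 to 2.42, while those of YTHDF1, YTHDF2, YTHDC1 and YTHDC2 stay between 0.20 and 0.63.

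Ratios between members within a library, in which the scaling of the library cancels, were also taken; these pairs were chosen after the values were seen and were not tested. The FPKM of YTHDF2 was 0.843 of that of YTHDF1 in both shCtrl libraries, and 0.957 and 0.948 of it in shIGF2BP3. YTHDC2 stood at 0.295 of YTHDC1 in both shCtrl libraries, and at 0.36 and 0.338 in shIGF2BP3. Both ratios were thus higher in the knockdown libraries without overlap. Separation in that direction was found for 23.3% of all genes tested by CPM, and its share over other ratios is not given here. YTHDC1 to YTHDF1, by contrast, was 0.76 and 0.719 in shCtrl and 0.75 and 0.772 in shIGF2BP3, and YTHDF3 to YTHDF1 was 0.158 and 0.721 against 0.549 and 0.738, both with overlap.

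The deposited unit is the transcript, and 14 of the 30 YTH transcripts had enough counts to be tested. The other 16 reached at most 79 counts in any library, and 4 of them were at 0 in every library. Of the 37927 transcripts tested, 6.3% were called by the same thresholds, and 2 of the 14 YTH transcripts were, both of YTHDF3 and both lower in shIGF2BP3. At an adjusted p under 0.05, edgeR called 0% of all transcripts and 0 of the 14. DESeq2, which kept a different set, called 3.51% of 41755 transcripts at that level, with 1 YTH transcript among them. Without adjustment, DESeq2 called 6.39% of 63238 transcripts and 3 of the 26 YTH transcripts it tested, the same pair and ENST00000541996 of YTHDF2. The files give the span of each transcript on GRCh38 but not its exons or coding region, so start and end differences are described as distances along the gene.

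YTHDF1 and YTHDC2 were each carried by 1 transcript. ENST00000370339 held 98.9% to 99.4% of the YTHDF1 count in the 4 libraries, and its log2 fold change was 0.27 (SE 0.16, adjusted p 0.889 by edgeR), close to that of the gene. ENST00000370334, which ends 938 bases before the 3′ end of YTHDF1, had between 12 and 22 counts per library and an edgeR adjusted p of 0.97. For YTHDC2, ENST00000161863 held at least 97.8% of the count, with a log2 fold change of 0.55 (SE 0.21, adjusted p 0.806 by edgeR). Gene and transcript values were therefore nearly the same quantity for these genes.

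YTHDF2 was carried mainly by ENST00000373812, with 1618 and 1281 counts in shCtrl and 1403 and 1585 in shIGF2BP3, which is 97.9%, 95.8%, 74.1% and 95.3% of the gene. The low share in shIGF2BP3 1 went with more than 1 other transcript. ENST00000542507, not tested in the main fit, had 7 and 8 counts in shCtrl and 79 and 0 in shIGF2BP3. It took 4.2% of the gene in shIGF2BP3 1. The larger part lay in ENST00000541996, which starts 319 bases into the gene and ends at the same base as ENST00000373812. That transcript had 0 and 15 counts in shCtrl and 391 and 71 in shIGF2BP3. It was higher in both knockdown libraries but differed by several fold between them, and its log2 fold change of 5.00 (SE 2.30, adjusted p 0.854, edgeR) had a 95% interval from -1.88 to 11.88. ENST00000496288, a short transcript from the 5′ part of the gene, had 28 and 33 counts in shCtrl and 21 and 8 in shIGF2BP3 (log2 fold change -0.90, adjusted p 0.902, edgeR).

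**Figure D4:**
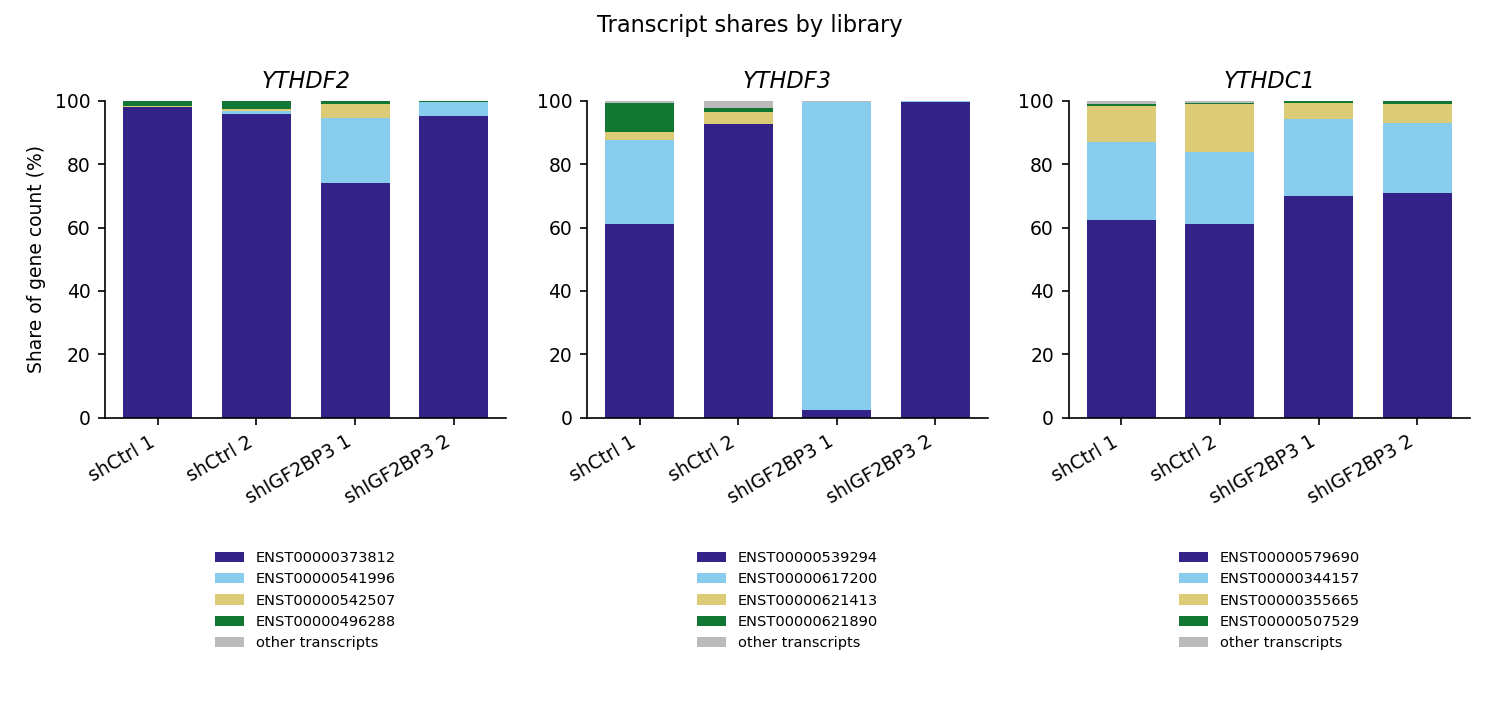
Share of the estimated count of YTHDF2, YTHDF3 and YTHDC1 (vertical axes, 0 to 100%) held by the 4 transcripts with the most counts and by the rest, in each library. ENST00000541996 of YTHDF2 takes 20.6% in shIGF2BP3 1, the 2 leading YTHDF3 transcripts trade places in shIGF2BP3 1, and ENST00000355665 of YTHDC1 takes 11.2% and 15.2% in shCtrl against 4.8% and 6.0% in shIGF2BP3.

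In YTHDF3 most of the count lay in a pair of transcripts with nearly the same ends. ENST00000539294 had 301 and 1822 counts in shCtrl and 44 and 2313 in shIGF2BP3. ENST00000617200, which starts at the same base and ends 1 base earlier, had 130 and 0 counts in shCtrl and 1881 and 5 in shIGF2BP3. Each library thus gave most of the gene to one of the pair, and which one differed within the shIGF2BP3 group. The log2 fold changes of 0.50 (SE 2.11) and 3.98 (SE 3.61) carried adjusted p of 1 and 0.942 by edgeR. Pooled with another transcript of nearly the same ends, they had 432 and 1822 counts in shCtrl and 1925 and 2318 in shIGF2BP3, a log2 fold change of 1.13 (SE 0.86, adjusted p 0.905, edgeR). A change of leading transcript between the 2 libraries of a group was found for 1843 of 9366 genes in shCtrl (19.7%) and 1898 in shIGF2BP3 (20.3%).

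The YTHDF3 transcripts that end well before the 3′ end of the gene were seen almost only in the controls. ENST00000621413, which ends 2831 bases before it, had 14 and 70 counts in shCtrl and 0 and 1 in shIGF2BP3. ENST00000621890, which ends 2619 bases before it, had 44 and 23 counts in shCtrl and 0 and 0 in shIGF2BP3. Both were lower in shIGF2BP3 without overlap although the gene as a whole was not, and the share of all transcripts with such separation is not given here. Over the group, the first stood at 84 against 1 count, a ratio of 0.0139 at equal scaling (95% counting interval 0.000348 to 0.0795). The second stood at 67 against 0, at least 19.1-fold lower against a floor of 3 counts over the group. The edgeR fit also takes in the spread between libraries. Its 95% interval of the fold was 0.000515 to 0.572 for the first and 0.000266 to 0.0614 for the second. The edgeR adjusted p was 0.67 for the first (unadjusted 0.0336) and 0.462 for the second (unadjusted 0.0104), and DESeq2 gave the second an adjusted p of 0.0189. Among the fits with 1 library left out and with a replicate block, ENST00000621413 was called without shCtrl 1 and with the block, ENST00000621890 without shIGF2BP3 1 or without shIGF2BP3 2, and neither without shCtrl 2 (unadjusted p 0.162 and 0.074, edgeR). A further transcript of this kind, ENST00000621957, had 47 counts in shCtrl 2 and 0 in the other 3 libraries and was not tested, and ENST00000621820 had 1 count, in shIGF2BP3 1. In all, the 4 transcripts that end 1 to 5 kb early held 58 and 140 counts of YTHDF3 in shCtrl (11.8% and 7.1%) and 1 and 1 in shIGF2BP3. The counting interval and the floor cover counting error only, and not the spread between libraries.

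**Figure D5:**
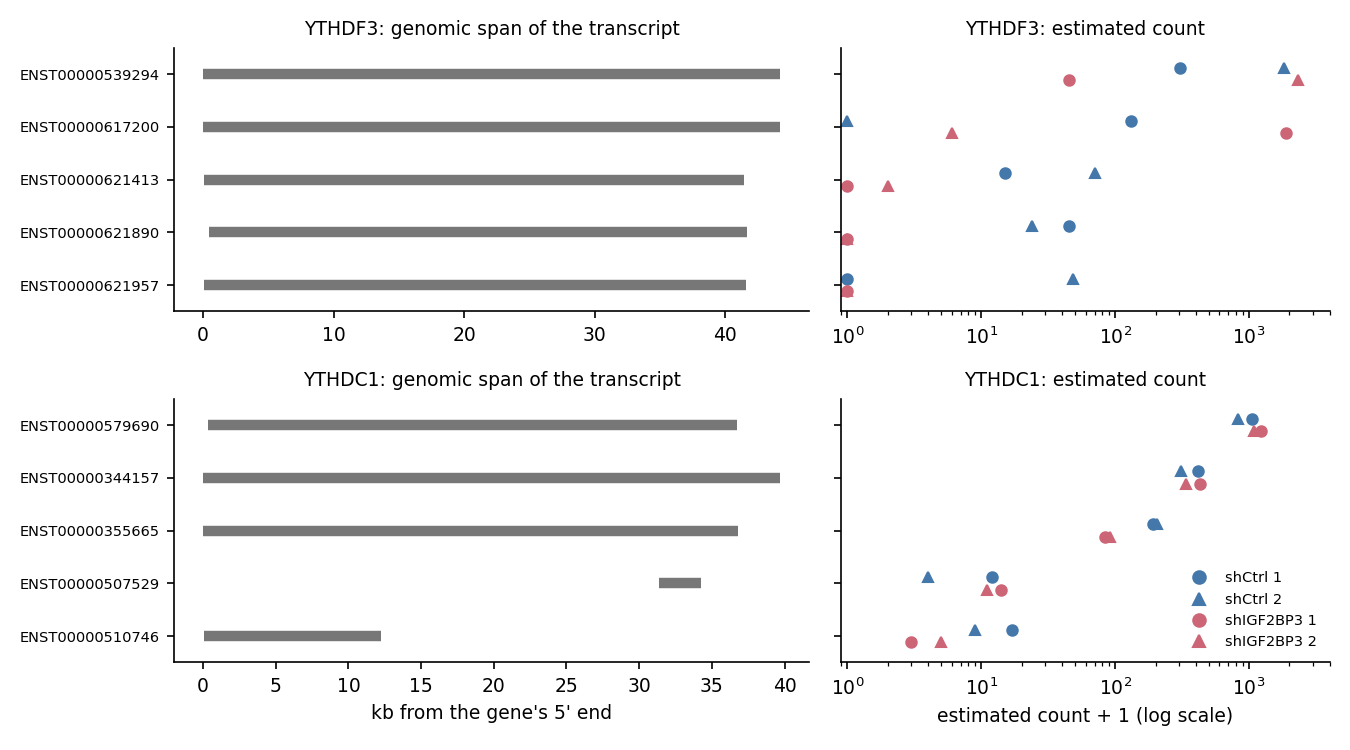
Genomic span of the transcripts of YTHDF3 and YTHDC1 with at least 30 counts in total (left, kb from the 5′ end of the gene) and their estimated counts (right, log axis, 1 added), with circles for replicate 1 and triangles for replicate 2. The YTHDF3 transcripts that stop about 2.6 to 2.8 kb early have blue symbols to the right and red symbols at 0 or 1 count, and among the YTHDC1 transcripts ENST00000355665 has 189 and 205 counts in shCtrl against 83 and 91 in shIGF2BP3.

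YTHDC1 was split between 3 transcripts that each held over 4% of the gene in all libraries. ENST00000579690 had 1051 and 821 counts in shCtrl and 1221 and 1081 in shIGF2BP3, which is 62.5% and 61.0% of the gene against 70.0% and 71.0%. ENST00000355665, which starts 336 bases further upstream and ends within 3 bases of it, had 189 and 205 counts in shCtrl and 83 and 91 in shIGF2BP3, or 11.2% and 15.2% against 4.8% and 6.0%. These shares moved in opposite directions and did not overlap between the groups, a pattern whose share over all genes is not given here. Their log2 fold changes were 0.53 (SE 0.21, unadjusted p 0.0769, adjusted p 0.817, edgeR) and -0.93 (SE 0.40, unadjusted p 0.0933, adjusted p 0.841, edgeR). The longest transcript, ENST00000344157, reaches 2937 bases further at the 3′ end than ENST00000579690 and held 24.6% and 22.9% in shCtrl and 24.4% and 22.1% in shIGF2BP3. Its share overlapped between the groups, at 23.7 ± 1.18% and 23.2 ± 1.62% (SD, n = 2). ENST00000507529, a short internal transcript, had 3 to 13 counts per library (edgeR adjusted p 0.939).

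Transcript usage, that is, whether the transcripts of a gene moved differently from each other, was tested for the 4 members with more than 1 tested transcript. An unadjusted p of at most 0.05 was reached by 13.1% of the 8479 genes tested and by 0 of the 4 members. An adjusted p under 0.05 was reached by 5.21% of the genes and by 0 of the 4 members, also by the Simes form of the edgeR test. The adjusted p were 1 for YTHDF1, 0.387 for YTHDF2, 0.52 for YTHDF3 and 0.652 for YTHDC1 (edgeR). When transcripts with both ends within 10 bases were pooled first, a setting chosen after the data were seen, YTHDF3 reached an adjusted p of 0.0408 (unadjusted 0.00184, edgeR) and was the 1 member called, beside 4.93% of the 8321 genes tested in that way. The pooled fit compares the long YTHDF3 class with the pair of early-ending transcripts just described. YTHDF2 had an adjusted p of 0.378 and YTHDC1 of 0.633 in the same fit.

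Known partners of the readers were held against the same thresholds. Of 58 partner genes listed, 56 were tested. At those thresholds 1 was called higher and 0 lower, beside 5.32% of all genes called in either direction. At an adjusted p under 0.05, edgeR called 0 partners and 0% of all genes. The median log2 fold change was 0.06 over the partners and 0 over all genes tested, with 33 partners above 0 and 23 below. The gene called was POP4, a subunit of RNase P and RNase MRP, the endonucleases through which YTHDF2 can act. It was at 69.34 and 69.36 CPM in shCtrl and at 87.21 and 123.82 in shIGF2BP3 (log2 fold change 0.61, SE 0.20, adjusted p 0.472, edgeR), and it was not called when scaled by library totals or with a replicate block. With POP4, 6 of the 56 partners had an unadjusted p of at most 0.05, against 10.5% of all genes, so their number was near the background. The other 5, named here after their values were seen, had a fold under 1.5. EIF3E and EIF3M, subunits of the initiation factor eIF3, had log2 fold changes of 0.54 and 0.58, PNRC2, which links UPF1 to decapping, 0.51, and RPP30, another RNase P subunit, 0.39. CNOT2, a subunit of CCR4-NOT, was the 1 with a lower value, at -0.39.

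By role, the median log2 fold change was 0.03 over 13 deadenylation genes (CCR4-NOT subunits and TOB proteins), 0.09 over 10 genes of the endonuclease route, -0.06 over 5 decapping and surveillance genes and -0.10 over 15 translation genes (eIF3 subunits, EEF2 and PABPC1). Over 11 nuclear partners of YTHDC1 it was 0.19. Among them, SRSF1 was a gene named by position without regard to strand. That gene, ENSG00000266086, was at 10.48 to 20.37 CPM and may be another gene at the SRSF1 locus. Its log2 fold change of 0.55 was the highest of the 11. Both knockdown libraries lay above both controls for 5 of these 11, that gene included, and below for 0, against 23.3% and 23.5% of all genes. The same counts were 4 and 1 for deadenylation, 2 and 1 for the endonuclease route, 2 and 1 for decapping and surveillance, and 3 and 5 for translation, and over all 56 partners they were 16 and 9. XRN1 and MEIOC, the tested partners of YTHDC2, stood at 0.06 and -0.27, both with adjusted p over 0.5 by edgeR.

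The 4 libraries gave a short profile for each member, and many genes shared it. Likeness was measured as the distance between centred log2 CPM profiles over the 4 libraries, among 8675 genes with a mean of at least 10 CPM. The nearest genes were OAT and SCARB2 for YTHDF1 (distances 0.012 and 0.013), CEBPZ and TARS3 for YTHDF2 (0.033 and 0.034), CD47 and PDHX for YTHDC1 (0.012 and 0.017), and MCOLN3 and SNX16 for YTHDC2 (0.016 and 0.036). Within a distance of 0.2 there were 1277 genes for YTHDF1, 985 for YTHDC1, 461 for YTHDF2 and 281 for YTHDC2. YTHDF3 had no gene within that distance.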

How the data were processed

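Total RNA of the 4 H1299 libraries was sequenced with an mRNA-seq kit. For each transcript the authors deposited an estimated count, a whole number that was not normalized, and FPKM values in a file per library. The submitters' processing notes name CASAVA, Trimmomatic, HISAT2, bedtools, FastQC and GRCh38, and the counter and annotation are not given in the sources used here. No transcript with a count of 0 had an FPKM above 0, so a count of 1 may stand for a smaller estimate. The labels number the shIGF2BP3 libraries 1 and 2, whereas the deposited columns number them 2 and 3; each was matched through its own FPKM file, and the numbers of the labels are used.

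Estimated counts (rounded) and FPKM were summed to genes. Symbols were assigned to 18218 genes by position against RefSeq (GRCh38.p14), at a shared part of at least 0.5 and a lead of 0.2. The strand was not used, so a symbol can fall on an overlapping gene. No gene of the table overlapped a member, and the RefSeq pseudogenes YTHDF1P1, YTHDF2P1 and YTHDF3P1 had no entry there; whether reads could be split with them was not tested. Genes and transcripts kept by filterByExpr (minimum count 10, total 15) were fitted across all features with edgeR 4.0.16 in R 4.3.3 (TMM, glmQLFit and glmQLFTest, prior count 0.125), and usage was tested with diffSpliceDGE. Adjusted p refers to Benjamini-Hochberg correction over all features of a fit. Alternatives used DESeq2 1.42.0, limma 3.58.1 on log2(FPKM + 1) or log2(FPKM + 0.1), other scalings and filters, and each library left out. The edgeR fits of genes and transcripts and the usage test were tried on simulated counts.

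The biological coefficient of variation was 22.8% for genes and 85% for transcripts, with 2 libraries per group. How far the number of libraries and the depth each limited the precision was not tested. TMM factors were 1.085, 0.973, 1.021 and 0.927. The libraries of a group differed by far more than counting noise (chi-square per degree of freedom 79.12 and 78.63). The genes named were the 5 members with each tested transcript, IGF2BP1 to IGF2BP3, called partner genes and the 2 genes most like each member, which are not reported here for YTHDF3. The members and lists were chosen with earlier results of these data known.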

Additional observations from a re-analysis of the deposited data

How the results depend on the processing

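All 5 YTH genes kept a log2 fold change above 0 under the 13 alternatives tried, and none reached an adjusted p under 0.05 under any of them (lowest 0.172, YTHDC2 by DESeq2). With library totals in place of TMM the values were 0.17 for YTHDF1, 0.38 for YTHDF2, 0.94 for YTHDF3, 0.24 for YTHDC1 and 0.45 for YTHDC2. The number of YTH genes called at a 1.5-fold change with an unadjusted p of at most 0.05 was 0 to 1 with 1 library left out: it was 1 without shCtrl replicate 1 (YTHDC2, 0.63), without shCtrl replicate 2 (YTHDF3, 2.42) and without shIGF2BP3 replicate 1 (YTHDC2, 0.60). Where 1 library remained in a group, it was assumed to vary like the other group.

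The replicate numbers were not shown to pair the libraries (correlation of deviations 0.044). With a replicate block, 1 YTH gene was called (YTHDF3, log2 fold change 1.31, unadjusted p 0.0223, adjusted p 0.447, edgeR), 0 partner genes were called, and 1 YTH gene had an unadjusted usage p of at most 0.05 (YTHDF3, 0.00582, adjusted 0.162). The count of called YTH transcripts stayed at 2, but ENST00000621890 was lost (unadjusted p 0.06) and ENST00000617200 of YTHDF3 was called higher (log2 fold change 4.26, unadjusted p 0.027, adjusted p 0.919, edgeR); the cause was not tested.

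For the partner list, scaling by library totals gave 0 calls, limma gave 2 on log2(FPKM + 1), on log2(FPKM + 0.1) and without a filter, and leaving out 1 library gave 1 to 7, the 7 without shIGF2BP3 replicate 1. The count of called YTH transcripts was 0 with at least 10 counts in every library and 0 with limma on FPKM, settings that drop both early-ending YTHDF3 transcripts, and 1 to 2 with 1 library left out (ENST00000621413 alone without shCtrl replicate 1, ENST00000541996 of YTHDF2 alone without shCtrl replicate 2, ENST00000621890 alone without shIGF2BP3 replicate 1, and ENST00000621890 with ENST00000542507 of YTHDF2 without shIGF2BP3 replicate 2). For usage at an unadjusted p of at most 0.05, the filter of 10 counts gave 1 YTH gene (YTHDC1, p 0.0147, adjusted 0.196, edgeR), and pooling of transcripts with near-identical ends, chosen after the data were seen, gave 1 (YTHDF3), also at an adjusted p under 0.05.

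Single transcripts reversed in 6 cases. ENST00000539294 of YTHDF3 went to -0.23 with limma on log2(FPKM + 1), -0.96 with the replicate block, -0.28 without shCtrl replicate 1 and -4.56 without shIGF2BP3 replicate 2, ENST00000617200 of YTHDF3 to -3.20 without shIGF2BP3 replicate 1, and ENST00000370334 of YTHDF1 to -0.12 without shIGF2BP3 replicate 2; with 1 library left out their highest values were 2.41 for ENST00000539294, 12.78 for ENST00000617200 and 0.97 for ENST00000370334. With the leading transcript alone, the family shares were 34.8% and 33.3% for YTHDF1 (shCtrl and shIGF2BP3), 17.8% and 20.3% for YTHDC1, 10.9% for YTHDF3 in shIGF2BP3 and 8.8% for YTHDC2 in shIGF2BP3. Transcript shares taken from FPKM moved by more than 1 SD in 16 of 28 cases, by at most 11.4 percentage points. A family share from CPM per transcript length was not run, because the files give no exon lengths.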
